A study of Mus musculus with 2 samples.

Results

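The granule biogenesis and exocytosis machinery is a set of 35 genes that build lysosome-related granules and release them at the cell surface. The set was chosen by function, by matching gene IDs to symbols, and holds subunits of 3 BLOC complexes, the AP-3 adaptor, Rab GTPases, tethering proteins, fusion proteins, granule transporters and the granule matrix core protein. Of the 35 genes, 34 had a row in the deposited tables, among 21461 nuclear protein-coding genes. Vamp7 was not analysed here. The study measured total RNA in 2 libraries of 1 group, so there was no contrast between conditions. Both libraries came from primary cells labelled megakaryocyte, taken from male adult C57BL/6J mice aged 5 to 6 weeks, with no genetic change or treatment named in the labels. The labels number them as biological replicates 1 and 2 and name the same donor for both. Each was made from 100 ng of RNA depleted of ribosomal RNA, with a stated size range of 221 to 1000 in library 1 and 200 to 1000 in library 2. The isolation protocol is titled for erythroid and megakaryocyte cells of bone marrow. No sort or purity is stated in the sources used here.

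Platelet alpha and dense granules, melanosomes, and the granules of neutrophils, mast cells and cytotoxic lymphocytes are relatives of the lysosome. BLOC-1, BLOC-2 and AP-3 sort cargo from endosomes to the growing granule, and BLOC-3 switches on Rab32 and Rab38. Rab27 proteins dock the finished granule, Munc13-4 primes it, and SNARE proteins with their Munc18 partner fuse it with the plasma membrane. Inherited loss of these genes gives Hermansky-Pudlak, Chediak-Higashi, Griscelli, gray platelet and familial hemophagocytic lymphohistiocytosis syndromes.

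The labelled cell type was checked against marker genes. Of 20 megakaryocyte and platelet markers, 16 were under 1 TPM (a length-scaled share of all transcripts) in both libraries and Gp5, Gp6, Mpig6b and Alox12 had 0 counts in both. Together they summed to 20.9 and 22.4 TPM in libraries 1 and 2, most of it from Thbs1, Itgb3 and Itga2b. Every one of 14 neutrophil markers reached 10 TPM in each library, and that list summed to 14944 and 14126 TPM. The 8 monocyte and macrophage markers summed to 7736 and 10128 TPM, and the 8 basophil, mast cell and eosinophil markers to 276 and 301 TPM. The data therefore go against the label, and the libraries are called here the libraries labelled megakaryocyte. In bulk RNA of this kind, fewer cells of a type and less RNA per cell cannot be told apart.

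Most of the machinery was present. A level of 1 TPM or more in both libraries was reached by 30 of 34 members, against 42.4% of all nuclear protein-coding genes. At 10 TPM or more in both libraries stood 16 of 34 members, against 16.9% of all genes. The median of the members' mean level was 8.51 TPM, and 0.28 TPM over all nuclear protein-coding genes. The 4 members under 1 TPM in both libraries were Rab27b, Rab38, Slc18a2 and Slc35d3. Nuclear protein-coding genes held 24% of all TPM in library 1 and 26.8% in library 2. With TPM rescaled over those genes alone, 32 members reached 1 TPM in both libraries, Rab38 at a mean of 1.90 and Slc18a2 at a mean of 2.17, and Rab27b and Slc35d3 stayed below.

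**Figure D1:**
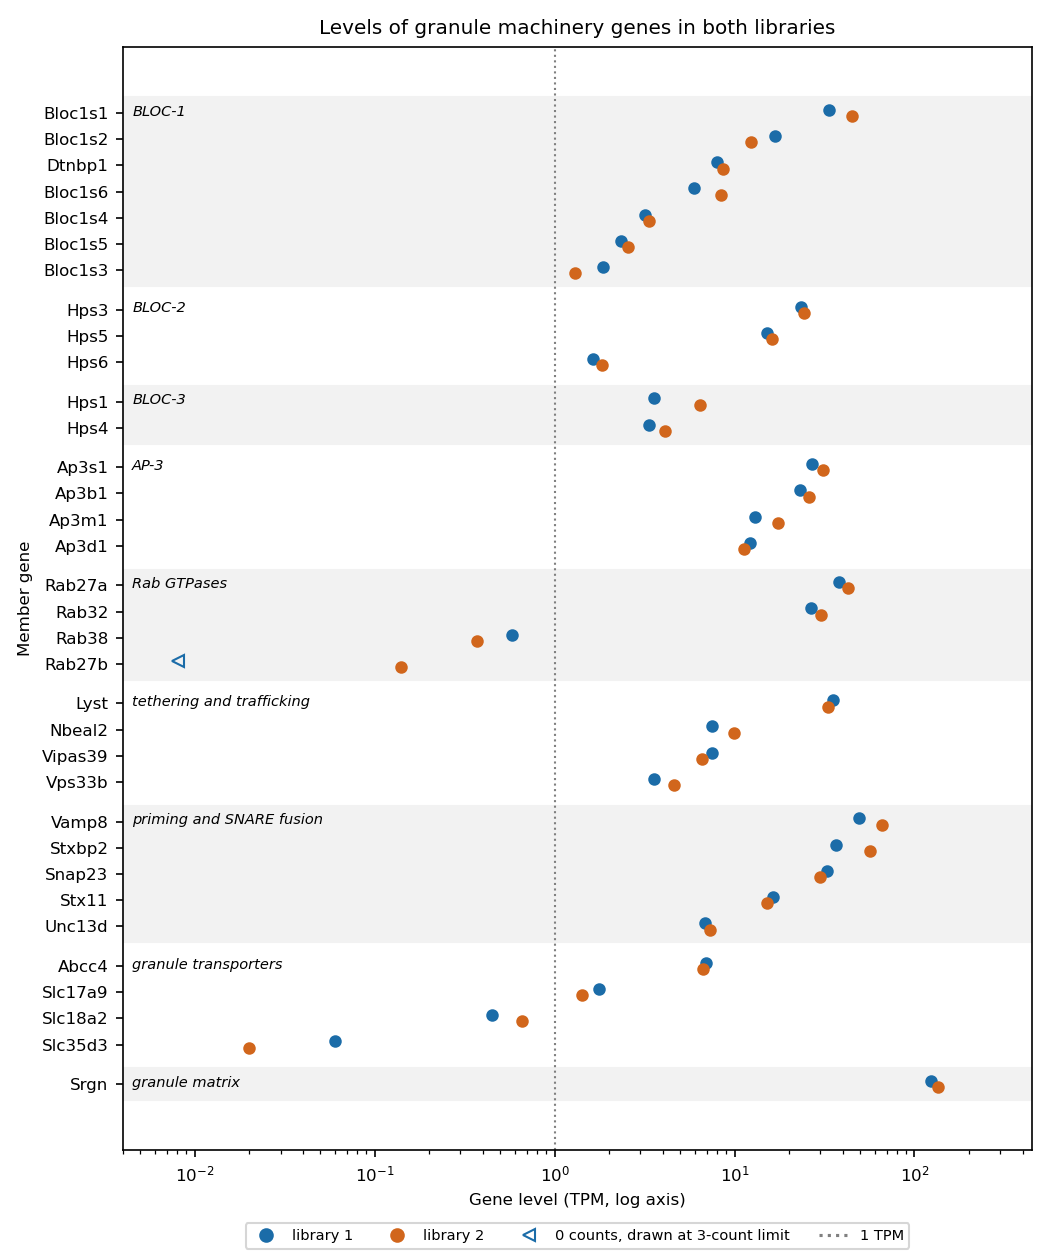
Level of each of the 34 members in TPM (horizontal log axis) in library 1 and library 2, grouped by complex or role and sorted by mean within a group. The 4 AP-3 genes all lie above 10 TPM, Srgn is highest at 124.1 and 135.0 TPM, and Rab27b, Rab38, Slc18a2 and Slc35d3 lie left of the dotted line at 1 TPM. An open triangle marks 0 counts, drawn at the level 3 counts would give.

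The 7 measured BLOC-1 genes spanned the widest range of the sorting complexes. Bloc1s1, a shared subunit of BLOC-1 and of the lysosome-positioning complex BORC, was at 33.6 TPM in library 1 and 45.2 TPM in library 2 (mean 39.4 ± 8.21 SD, n = 2). Bloc1s2, shared with BORC as well, was at 16.8 and 12.3 TPM. These were the 2 BLOC-1 genes above 10 TPM in both libraries. Dtnbp1, which encodes dysbindin, was at 8.03 and 8.62 TPM. Bloc1s4, the cappuccino gene, was at 3.18 and 3.37 TPM. Bloc1s5, the muted gene, was at 2.33 and 2.56 TPM. Bloc1s3, the reduced pigmentation gene, was lowest at 1.86 and 1.30 TPM, so that Bloc1s1 stood 18.1-fold above it in library 1 and 34.8-fold in library 2. Bloc1s6, the pallidin gene, was listed at 5.98 and 8.36 TPM, but its protein-coding transcripts held 2.34 and 1.39 TPM. Snapin, which encodes the remaining BLOC-1 subunit and is no member, was at 12.3 and 11.2 TPM, of which 13.2% and 27.1% lay in protein-coding transcripts.

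The 3 BLOC-2 genes were unequal in the same way in both libraries. Hps3 was at 23.5 and 24.3 TPM (mean 23.9 ± 0.559 SD, n = 2) and Hps5 at 15.2 and 16.2 TPM. Hps6, whose protein joins both in one complex, was at 1.64 and 1.83 TPM. Hps3 stood 14.3-fold above Hps6 in library 1 and 13.3-fold in library 2. On protein-coding transcripts alone these ratios were 7.36 and 6.02. Noncoding transcripts thus made up part of the gap and not all of it. The 2 BLOC-3 genes were lower than the 2 higher BLOC-2 genes. Hps1 was at 3.58 and 6.44 TPM and Hps4 at 3.34 and 4.09 TPM. Coding transcripts of Hps1 held 2.61 and 3.23 TPM and those of Hps4 2.05 and 2.00 TPM, so neither library showed either gene above 4 TPM in coding form.

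All 4 AP-3 genes were above 10 TPM in both libraries, within a narrower range than BLOC-1 or BLOC-2. Ap3s1, the small sigma subunit, was at 27.1 and 31.1 TPM (mean 29.1 ± 2.85 SD, n = 2). Ap3b1, the beta subunit lost in Hermansky-Pudlak syndrome and in pearl mice, was at 23.1 and 25.9 TPM. Ap3m1, the cargo-binding mu subunit, was at 12.9 and 17.4 TPM, and Ap3d1, the delta subunit lost in mocha mice, at 12.2 and 11.3 TPM. The highest of the 4 exceeded the lowest 2.22-fold in library 1 and 2.76-fold in library 2. The broadly expressed forms outweighed their paralogs. Ap3b2, the neuronal beta subunit, had 0 counts in both libraries, which puts Ap3b1 at least 1374-fold and 1740-fold higher per length at a limit of 3 counts per library. Ap3m1 stood 15.0-fold and 13.2-fold above Ap3m2, and Ap3s1 18.6-fold and 24.3-fold above Ap3s2. The exons of Ap3m1 overlap those of Vcl, on the opposite strand, over 29.8% of their bases, and Vcl had 15616 and 17987 counts. The sources used here do not say whether strand was used in counting, so the Ap3m1 level is uncertain.

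Among the Rab GTPases, 1 gene of each closely related pair carried nearly all of the RNA. Rab27a, the docking GTPase lost in Griscelli syndrome and in ashen mice, was at 38.2 and 42.5 TPM (mean 40.4 ± 3.01 SD, n = 2). Rab27b, its paralog, which acts in the release of platelet dense granules, had 0 counts in library 1 and 53 counts in library 2, or 0 and 0.14 TPM. Rab27a was at least 4722-fold above Rab27b in library 1, at the limit of 3 counts, and 304-fold above it in library 2. Rab32 was at 26.8 and 30.4 TPM (mean 28.6 ± 2.60 SD, n = 2). Rab38, which acts beside Rab32 in melanosomes, was at 0.58 and 0.37 TPM from 72 and 52 counts. Rab32 stood 46.1-fold and 82.2-fold above Rab38. Of 7 melanocyte markers 6 had 0 counts in both libraries. The remaining marker, Pmel, had 28 counts in library 1 and 5 in library 2, or 0.15 and 0.02 TPM.

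**Figure D2:**
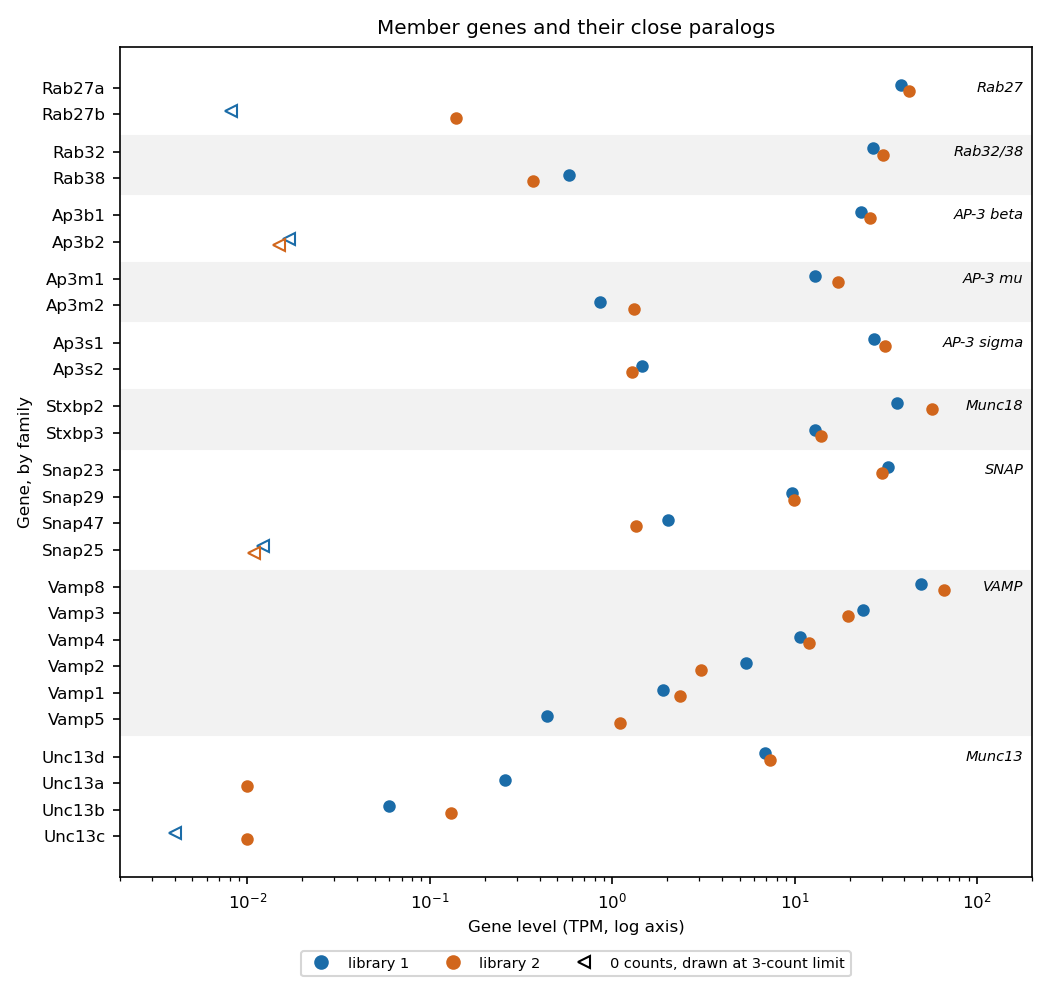
Levels in TPM (horizontal log axis) of member genes and their close paralogs in library 1 and library 2, by family. Rab27a, Rab32, Ap3b1, Ap3m1, Ap3s1, Stxbp2, Snap23, Vamp8 and Unc13d are each the highest of the family genes drawn, in both libraries. Open triangles mark 0 counts, drawn at the level 3 counts would give.

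The 4 tethering and trafficking genes were all present. Lyst, the large BEACH-domain protein lost in Chediak-Higashi syndrome and in beige mice, was at 35.2 and 33.0 TPM (mean 34.1 ± 1.53 SD, n = 2) from 40842 and 43541 counts. Nbeal2, a related BEACH protein lost in gray platelet syndrome, was at 7.49 and 9.91 TPM, with 6.57 and 5.53 TPM in coding transcripts. Vps33b and Vipas39 encode partners in a complex needed for alpha granules. Vps33b was at 3.55 and 4.63 TPM and Vipas39 at 7.53 and 6.62 TPM. Coding transcripts held 1.86 and 2.19 TPM of the Vps33b level. Vps33a, the paralog of Vps33b that serves the HOPS and CORVET tethers, was at 7.64 and 7.46 TPM, 2.15-fold and 1.61-fold above it, and 4.11-fold and 3.41-fold on coding transcripts. The other tether subunits were fixed as a list of 8 genes with Vps33a, and each of the 8 was above 1 TPM in both libraries. The highest were Vps16, at 24.8 and 26.6 TPM with 25.4% and 27.5% of that in coding transcripts, and Vps41, at 10.76 and 12.97 TPM.

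The fusion machinery was the highest group after Srgn. Vamp8, the SNARE on the granule membrane, was at 49.3 and 66.1 TPM (mean 57.7 ± 11.9 SD, n = 2). Stxbp2, or Munc18-2, which chaperones syntaxin 11, was at 36.5 and 56.5 TPM (mean 46.5 ± 14.1 SD, n = 2). Snap23, a SNARE anchored to the plasma membrane by lipid, was at 32.7 and 30.0 TPM. Stx11, the syntaxin partner, was at 16.4 and 15.2 TPM, and Unc13d, which encodes Munc13-4, at 6.87 and 7.32 TPM. Thus 4 of 5 measured fusion genes exceeded 10 TPM in both libraries and Unc13d did not. In coding transcripts Stxbp2 held 21.3 and 33.2 TPM and Snap23 21.2 and 21.6 TPM.

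Relatives of Snap23 and Unc13d known from neurons were near 0. Snap25 had 0 counts in both libraries, with Snap23 at least 2670-fold and 2778-fold higher at the limit of 3 counts. Unc13b was at 0.06 and 0.13 TPM, with Unc13d 114.5-fold and 56.3-fold above it, and 170.3-fold and 204.7-fold on coding transcripts. Widely expressed relatives were closer. Stxbp3 was at 12.9 and 13.9 TPM, with Stxbp2 2.83-fold and 4.08-fold above it, and 1.80-fold and 2.61-fold on coding transcripts. Vamp3 was at 23.7 and 19.6 TPM, with Vamp8 2.08-fold and 3.37-fold above it. Stx7, an endosomal syntaxin, was at 37.7 and 48.7 TPM, 2.31-fold and 3.20-fold above Stx11.

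Transporters that load granules had the lowest median of the groups, at 1.07 TPM, though BLOC-3 had the lower sum on coding transcripts. Abcc4, a nucleotide efflux pump found on platelet dense granules, was at 6.93 and 6.71 TPM (mean 6.82 ± 0.156 SD, n = 2). Slc17a9, the vesicular nucleotide transporter, was at 1.76 and 1.42 TPM. Slc18a2, which loads serotonin and histamine, was at 0.45 and 0.66 TPM from 162 and 267 counts. Slc35d3, needed for dense granules in mouse platelets, was at 0.06 and 0.02 TPM from 14 and 5 counts. None of the 4 reached 10 TPM in either library, and 2 of 4 stayed under 1 TPM in both. Srgn, serglycin, the proteoglycan core that packs proteases and chemokines into granules, was the highest member at 124.1 and 135.0 TPM (mean 129.6 ± 7.74 SD, n = 2). Srgn was above 98.6% of all nuclear protein-coding genes by mean TPM.

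When the members were ordered by mean TPM, 22 of 33 neighbouring pairs had library values that overlapped and 11 did not. Srgn was apart from Vamp8 below it. Vamp8, Stxbp2, Rab27a, Bloc1s1 and Lyst followed, with each neighbouring pair among them overlapping. Overlap means that the lower value of a gene was at or under the higher value of the next, from either library. Within each library Vamp8 was above Stxbp2, Rab27a, Bloc1s1 and Lyst, and Rab27a was above Lyst. The order of Stxbp2 and Rab27a, of Rab27a and Bloc1s1, and of Bloc1s1 and Lyst changed between the libraries. Gaps without overlap included those between Hps3 and Stx11, Ap3d1 and Nbeal2, and Bloc1s3 and Slc18a2. Slc18a2 and Rab38 overlapped at the low end, as did Rab27b and Slc35d3.

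Partners of the members were counted from lists of 112 genes. Of these, 76 reached 1 TPM in both libraries, against 42.4% of all nuclear protein-coding genes. Under 1 TPM in both were 32 partners, against 11827 of all 21461 genes. In 13 partners there were 0 counts in both libraries, and that share over all genes is not given here. Granule membrane proteins included Lamp1 at 187 and 222 TPM, Lamp2 at 78.7 and 92.8 TPM and Cd63, a tetraspanin of late endosomes and granules, at 11.7 and 14.3 TPM. Among other secretory Rabs, Rab8a was listed at 107.8 and 158.5 TPM, but 22.5% and 16.7% of that lay in coding transcripts. Rab3d, found on secretory granules of exocrine and mast cells, was at 16.0 and 24.8 TPM, and Rab3c had 0 counts. Rab11a, a recycling endosome GTPase, was at 39.3 and 39.2 TPM, and Rab7, the late endosome GTPase, at 41.0 and 36.0 TPM. Beside AP-3 and BLOC-1, the BORC gene Kxd1 was at 20.1 and 19.8 TPM, and the AP-1 adaptor genes Ap1g1 and Ap1m1 at 20.1 and 18.9 TPM and at 18.9 and 14.6 TPM. The other SNAREs had list medians of 8.05 TPM for syntaxins and 4.29 TPM for VAMPs and SNAPs. Of the highest in those lists beside Stx7 and Vamp3, Vti1b was at 48.6 and 53.4 TPM, Ykt6 at 10.4 and 14.8 TPM, Stx5a at 10.1 and 18.1 TPM and Stx12 at 12.4 and 14.0 TPM. Of the Stx5a level, 65.1% and 49.5% lay in coding transcripts. Nsf and Napa, which take spent SNARE complexes apart, were at 12.2 and 14.0 TPM and at 10.1 and 11.1 TPM.

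Rab27 effectors among the listed partners, the proteins that read the GTP-bound form, were mostly low. Mlph and Myrip had 0 counts in both libraries, and Sytl1, Sytl2, Sytl4 and Sytl5 were at or under 1.03 TPM in each. Sytl3 was at 2.34 and 2.38 TPM, of which 0.83 and 1.18 TPM lay in coding transcripts. Exph5 and Rph3al had 0 counts in library 1, and 17 and 56 counts in library 2, or 0.03 and 0.36 TPM. Myo5a, the motor recruited by melanophilin, was at 56.2 and 46.3 TPM, and Madd, an exchange factor for Rab27 and Rab3, at 15.8 and 21.7 TPM. Coding transcripts held 38.2 and 27.8 TPM of the Myo5a level and 8.06 and 6.37 TPM of the Madd level. Rabggtb, a subunit of the enzyme that attaches lipid to Rabs, was at 10.4 and 11.2 TPM. Csgalnact2, which begins chondroitin chains on cores such as serglycin, was at 36.1 and 43.0 TPM, while Csgalnact1 was at 0.09 and 0.46 TPM. Chsy1, which extends those chains, was at 9.38 and 10.2 TPM, and Ndst1, which modifies heparan sulfate, at 5.84 and 4.90 TPM. Synaptotagmins, calcium sensors of exocytosis, were not detected in 4 cases: Syt1, Syt2, Syt7 and Syt9 had 0 counts in both libraries. Syt11, the other synaptotagmin listed, was at 0.16 and 0.58 TPM.

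The libraries were compared with each other by a two-sided exact binomial test of the rounded counts, with p-values adjusted over the 12081 genes whose mean count was at least 10. This test compares the reads of 2 libraries of 1 group and holds counting error only, and no biological spread. Of 33 members tested, 25 had an adjusted p under 0.05, against 65.6% of all genes tested. Of these, 14 were higher in library 2, against 33.1% of all genes, and 11 were higher in library 1, against 32.6%. A difference of 1.5-fold or more was found in 2 of 33 members, against 18% of all genes. Those were Rab27b, higher in library 2, where 8.15% of genes were that much higher, and Rab38, higher in library 1, where 9.81% were. The median size of the log2 ratio was 0.12 over the members and 0.20 over all genes. Rab27b, at 0 and 53 counts, and Rab38, at 72 and 52, rested on few counts. The genes tested were not matched to the members in level, so the members cannot be called steadier than other genes from these values.

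**Figure D3:**
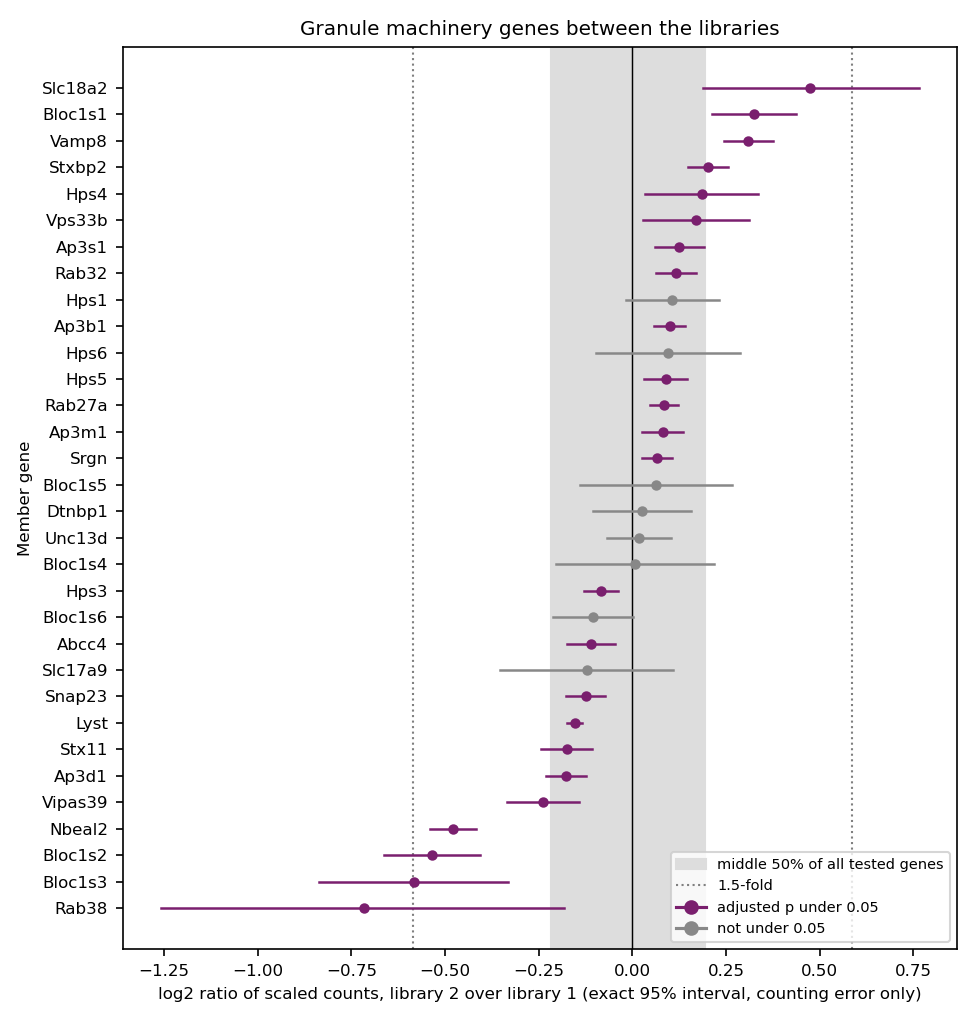
The log2 ratio of scaled counts, library 2 over library 1, for the 32 members tested that had counts in both libraries, with exact 95% intervals that hold counting error only. Rab38 lies past the dotted 1.5-fold line and Bloc1s3 at 1.498-fold lies just inside it. Rab27b, with 0 counts in library 1, is not drawn.

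Rab27b differed most. Its 0 against 53 counts were at least 14.9-fold apart after scaling, at a limit of 3 counts for library 1 (adjusted p = 7.9e-14 in the exact binomial test). Among nuclear protein-coding genes, 370 had 0 counts in library 1 and 10 or more in library 2, and 205 the reverse. Of the 20 megakaryocyte and platelet markers, 7 had 0 counts in library 1 and any count above 0 in library 2, and none the reverse. That is a looser rule than the 10 counts used for all genes, and the share of all genes under it was not counted here. Only Gp1bb, at 34.5 counts, reached 10. The rest ran from 1 count for Mmrn1 to 8 counts for Treml1. Of the 9 markers on that list that were tested, 3 passed as higher in library 2, against 33.1% of all genes. Itgb3 passed as higher in library 1, at a log2 ratio of -0.13, where 32.6% of all genes did. Tubb1, at 16 and 9 counts, and Vwf, at 30 and 24 counts, did not pass the threshold. The part of these markers in the Rab27b difference was not tested. Rab38 was lower in library 2, with a log2 ratio of -0.72 (95% interval -1.26 to -0.18, adjusted p = 0.012 in the exact binomial test).

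Other differences were smaller. Bloc1s3 and Nbeal2 were lower in library 2, with log2 ratios of -0.58 and -0.48 (adjusted p = 1.1e-05 and 1.8e-51, exact binomial test). By rescaled TPM of all its transcripts, Nbeal2 went the other way, and by that of its coding transcripts it did not, as given below. Slc18a2 was higher in library 2 with a log2 ratio of 0.47 (95% interval 0.19 to 0.77, adjusted p = 0.0019, exact binomial test). Slc18a2 is expressed in basophils and mast cells. Of the 8 markers of those cells and eosinophils, 3 were higher in library 2 and 3 in library 1. Those higher in library 2 were Mcpt8, Prss34 and Fcer1a, at log2 ratios of 0.11, 0.21 and 0.67. Those higher in library 1 were Prg2, Epx and Gata2, at -0.28, -0.81 and -0.58. Ms4a2 and Cpa3 did not pass the threshold. The part of these markers in the Slc18a2 difference was not tested. Bloc1s2 had a log2 ratio of -0.53 and Bloc1s1 of 0.32, so these shared subunits of BLOC-1 and BORC differed in opposite directions. Vamp8 had a log2 ratio of 0.31 and Stxbp2 of 0.20, while Stx11 at -0.17 and Snap23 at -0.12 were lower in library 2. Within AP-3, Ap3d1 was lower in library 2 at -0.18 and the other 3 subunits higher, at 0.08 to 0.12. The 8 members that missed the threshold were Bloc1s4, Bloc1s5, Bloc1s6, Dtnbp1, Hps6, Hps1, Unc13d and Slc17a9. The interval for Unc13d ran from -0.07 to 0.10 and that for Slc17a9 from -0.35 to 0.11.

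Marker lists of other cells differed between the libraries too. Of 14 neutrophil markers 9 were higher in library 1 and 1 in library 2, with sums of 14944 and 14126 TPM. Of 9 erythroid markers 8 were higher in library 1, with a summed level of 114.8 against 54.9 TPM. Of 8 natural killer and T cell markers 6 were higher in library 1, at 33.0 against 19.8 TPM. Of 8 monocyte and macrophage markers 7 were higher in library 2. Their part in the members' differences was not tested. Among the partner genes, 89 were tested, of which 33 were higher in library 2, against 33.1% of all genes, and 26 in library 1, against 32.6%.

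Gene levels and counts gave different ratios for some members. TPM divides by an effective length that depends on which transcripts the reads were assigned to. With TPM rescaled to nuclear protein-coding genes, the log2 ratio between libraries differed from that of counts by 0.25 or more in 5 of 32 members, against 19.2% of genes. Nbeal2 was 4639 counts in library 1 and 3948 in library 2, a scaled ratio of 0.717, yet its rescaled TPM ratio was 1.19. Its effective length was 6180 bases in library 1 and 3495 in library 2. Bloc1s6 reversed likewise, with a scaled count ratio of 0.930 and a TPM ratio of 1.25. Hps1 was 1.08-fold by counts and 1.61-fold by TPM, Stxbp2 1.15-fold and 1.38-fold, and Slc17a9 0.919 and 0.723. On rescaled TPM of coding transcripts alone, Nbeal2 and Bloc1s6 had log2 ratios of -0.41 and -0.91, the direction of their counts. By that measure Hps1 and Stxbp2 also kept the direction of their counts, at 0.15 and 0.48. Slc17a9, at 0.05, did not. In all, 10 of 32 members had opposite signs by counts and by TPM of all transcripts, against 17.8% of genes. In 8 of these 10 members the gap was under 0.25. Of those 8, Hps5, Rab27a and Srgn had passed the test as higher in library 2 by counts, at ratios of 1.06, 1.06 and 1.05, and were at 0.955, 0.995 and 0.975 by rescaled TPM. Bloc1s4, Bloc1s5, Dtnbp1, Hps6 and Unc13d had not passed it. Effective length in library 2 over library 1 was 1.04, 0.995 and 1.00 for Hps5, Rab27a and Srgn, with gaps of -0.16, -0.09 and -0.10. The median gap over all genes was -0.09, so a small ratio has no settled direction here.

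**Figure D4:**
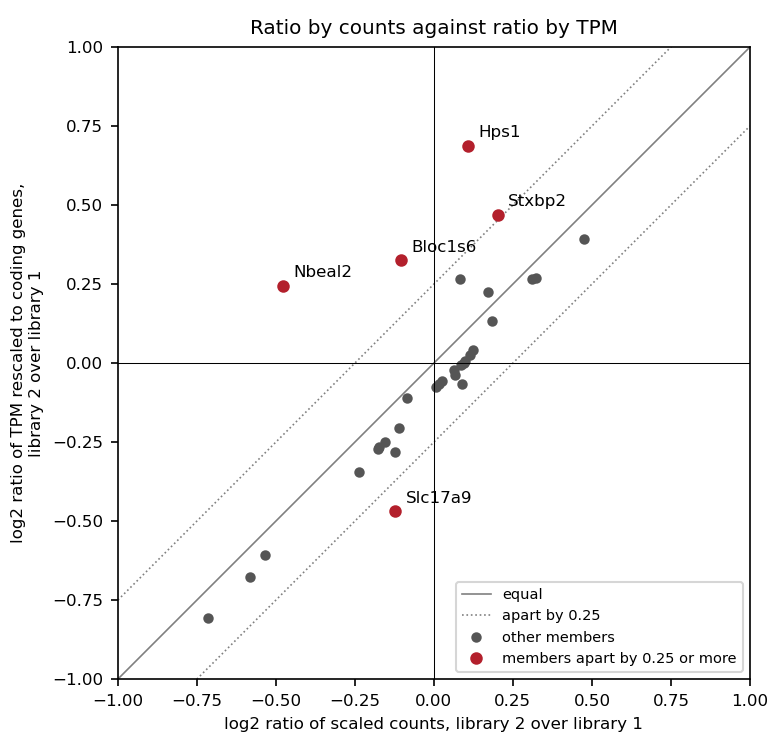
The log2 ratio of library 2 over library 1 for 32 members, by scaled counts (horizontal) and by TPM rescaled to nuclear protein-coding genes (vertical). Most members follow the line of equality with a median offset of -0.09, and Nbeal2, Hps1, Bloc1s6, Stxbp2 and Slc17a9 lie outside the dotted band of 0.25. Nbeal2 and Bloc1s6 lie in the upper left, lower by counts and higher by TPM.

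Total RNA holds unspliced and noncoding transcripts, and the share of a gene's TPM in protein-coding transcripts was therefore given for each member at 1 TPM or more. In 16 of 30 members (53.3%) coding transcripts held 99% or more in both libraries, against 45.5% of all such genes. Coding transcripts held under 50% in both libraries in 1 of 30 members, Bloc1s6, against 7.35% of genes. The Bloc1s6 share was 39.1% in library 1 and 16.6% in library 2. Hps3, Vps33b and Hps4 lay near 50%, at 51.3% and 45.3%, 52.4% and 47.3%, and 61.4% and 48.9%. In library 1 and library 2 the share was 87.7% and 55.8% for Nbeal2, 72.9% and 50.2% for Hps1, and 68.2% and 97.9% for Slc17a9.

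**Figure D5:**
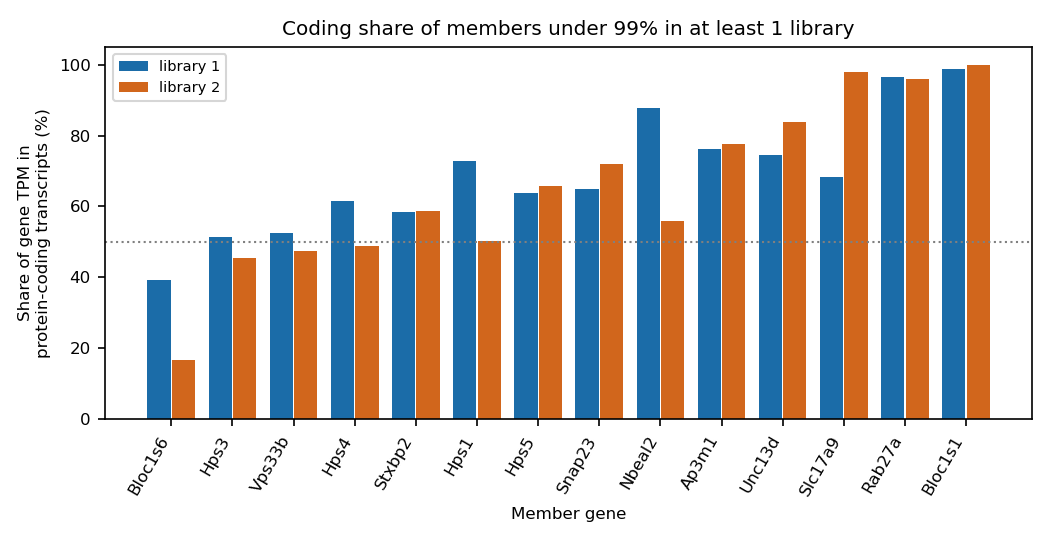
Percent of gene TPM held by protein-coding transcripts in library 1 and library 2 for the 14 members at 1 TPM or more that were under 99% in at least 1 library. Bloc1s6 is below the dotted line at 50% in both libraries, and Nbeal2, Hps1 and Slc17a9 differ most between the libraries together with Bloc1s6.

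The leading transcript, the one with the largest share of the gene's TPM, was examined in 20 members with more than 1 transcript and 1 TPM or more. In 5 of 20 it was noncoding, differed between libraries or moved by 20 points or more, against 33% of such genes. It was not protein-coding in at least 1 library in 3 members, against 15%, it differed in 4, against 17.8%, and its share moved by 20 points or more in 5, against 21.4%. Bloc1s6 was led in library 1 by the processed transcript Bloc1s6-206 with 50.2% and in library 2 by the processed transcript Bloc1s6-203 with 46.7%, the latter from 11.8 and 388 counts. Hps1-208, a coding form, held 66.0% and 41.5%, and in library 2 the retained-intron form Hps1-205 led with 47.1% from 158 counts. Nbeal2-210, the coding form of 8803 bases, held 63.5% and 29.1%. In library 2 Nbeal2 was led by Nbeal2-209, a retained-intron form of 295 bases, with 36.1% from 30.7 counts. So 30.7 counts on a short form outweighed 2812 counts on the long coding form when divided by length.

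Vipas39 was led by different coding forms. Vipas39-203 held 52.5% in library 1 and 0% in library 2, while Vipas39-202 held 47.5% and 90.2%. The forms differ by coding exon 7 of Vipas39-202, 57 bases or 19 codons at chr12:87254230-87254286 on the minus strand of GRCm38, which keeps the reading frame. Forms without the exon, Vipas39-201 included, summed to 52.5% and 9.83%. The sequence is shown because the exon is what separates the forms, with the 57 bases in capitals between 24 coding bases on either side.
Vipas39-202: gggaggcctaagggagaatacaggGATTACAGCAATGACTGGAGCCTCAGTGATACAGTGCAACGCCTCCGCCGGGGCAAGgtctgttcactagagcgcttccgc
Vipas39-203: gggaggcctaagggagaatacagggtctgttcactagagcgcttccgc
The counts assigned to forms with the exon were 835 and 1576, and to forms without it 899 and 169. These are estimated assignments, and reads across the exon's junctions were not analysed here.

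Unc13d showed a smaller difference of the same kind. Coding forms that share its end of exon 17 either hold or lack 6 bases, 2 codons, at chr11:116069881-116069886 on the minus strand. Forms with the 6 bases summed to 68.0% of gene TPM in library 1 and 42.2% in library 2, and forms without to 6.47% and 33.6%. The capitals mark the 6 bases.
Unc13d-203: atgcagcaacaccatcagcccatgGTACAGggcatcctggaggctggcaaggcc
Unc13d-201: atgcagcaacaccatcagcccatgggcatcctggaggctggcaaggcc
With shares taken from the deposited posterior means, forms with the 6 bases held 55.1% and 43.4% and forms without 15.7% and 30.0%, so the gap between libraries was narrower on that estimate.

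Promoter windows of 250 bases upstream of the start site were read for 27 members from RefSeq annotation on GRCm38.p6. Where a gene had more than 1 window, that of the start site with the larger transcript share was used. The median number of CpG dinucleotides was 15 over the members and 6 over all 32851 windows. Those windows include more than 1 for some genes and were not limited to genes present in these libraries. The members and this background are therefore not matched. Only 4 members had 8 or fewer, against 59.7% of all windows: Srgn and Vamp8 with 3, Rab32 with 5 and Bloc1s1 with 7. Those 4 were among the more highly expressed members, at mean levels of 28.6 TPM or more. Stxbp2, Rab27a, Lyst and Snap23, also above that level, had 17, 14, 22 and 17 CpG. Srgn had a pair of annotated windows, and transcripts from the downstream start held 96.2% and 96.0% of its TPM.

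Motifs of regulators known from granule-bearing cells were searched on both strands. The palindromic E-box CACGTG, the core of the element bound by the lysosomal regulators TFEB and MITF, was in 6 of 27 member windows (22.2%), against 6.02% of all windows. Among windows with 9 or more CpG it was in 5 of 23 members, against 9.22% of all such windows. The 6 were Abcc4, Bloc1s1, Bloc1s3, Hps3, Hps5 and Stxbp2. For Hps5, transcripts starting at that window held 0.88% and 12.7% of its TPM. The ETS core GGAAGT was in 4 members, against 19.7% of windows, and the GATA motif AGATAA in 3, against 9.99%. The shares of all windows rest on the same unmatched background. These are matches of letters and not sites shown to be bound.

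The windows of the 3 most highly expressed E-box genes are shown beside that of Srgn, the highest member, which held none of the searched motifs. Capitals mark the motif, and each runs 5′ to 3′ along the gene's strand, ending at the base before the start site. The positions are chr10:128923525-128923774 on the minus strand for Bloc1s1, chr8:3630859-3631108 on the plus strand for Stxbp2, chr3:20035311-20035560 on the minus strand for Hps3, and chr10:62507758-62508007 on the minus strand for Srgn.
Bloc1s1: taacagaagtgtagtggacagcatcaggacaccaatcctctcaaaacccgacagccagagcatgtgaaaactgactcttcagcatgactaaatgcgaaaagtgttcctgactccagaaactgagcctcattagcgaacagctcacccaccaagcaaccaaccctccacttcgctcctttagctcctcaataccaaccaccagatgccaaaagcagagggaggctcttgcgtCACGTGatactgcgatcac
Stxbp2: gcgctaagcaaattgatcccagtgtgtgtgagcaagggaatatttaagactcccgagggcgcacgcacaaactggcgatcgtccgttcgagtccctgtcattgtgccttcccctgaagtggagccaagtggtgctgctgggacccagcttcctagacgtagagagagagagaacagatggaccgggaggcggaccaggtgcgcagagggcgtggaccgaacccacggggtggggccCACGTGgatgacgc
Hps3: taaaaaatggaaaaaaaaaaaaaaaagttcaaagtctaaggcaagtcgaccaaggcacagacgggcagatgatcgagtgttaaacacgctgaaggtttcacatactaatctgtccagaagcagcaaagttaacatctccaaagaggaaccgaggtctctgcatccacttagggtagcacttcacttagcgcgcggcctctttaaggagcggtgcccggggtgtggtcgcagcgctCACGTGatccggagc
Srgn: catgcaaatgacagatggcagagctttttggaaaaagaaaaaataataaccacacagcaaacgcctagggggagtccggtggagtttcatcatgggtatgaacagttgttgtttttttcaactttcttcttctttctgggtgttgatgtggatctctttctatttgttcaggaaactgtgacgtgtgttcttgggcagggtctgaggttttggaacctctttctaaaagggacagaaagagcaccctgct
The first base of the motif lay 19 bases upstream of the start site in Bloc1s1, 14 in Stxbp2 and 15 in Hps3. Transcripts starting at these windows held all of the Bloc1s1 TPM, 64.6% and 61.0% of that of Stxbp2, and 76.4% and 69.9% of that of Hps3.

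The Bloc1s1 level carries a further limit. Its annotated exons share 55.9% of their bases with those of Rdh5 on the same strand, which had 26 and 40.3 counts against 1093 and 1623 for Bloc1s1. Exons of 10 members overlapped another gene, 3 on the same strand and 7 on the opposite strand. Counts of 4 members, Bloc1s1, Bloc1s2, Ap3m1 and Ap3s1, were not whole numbers, as happens when reads are shared between genes.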

How the data were processed

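Total RNA-seq of 2 libraries was used as tables per gene and per transcript. Per the deposited text files, the reads were mapped to mm10 with GENCODE M4. The aligner, quantifier and strand setting are not given in the sources used here. Expected counts, as deposited, are estimated reads per gene or transcript, not normalized, and summed to 42703213 and 50532821. The deposited TPM values are length-scaled shares over all rows. The deposited percent values give each transcript's share of its gene's TPM.

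Symbols, types and coordinates came from GENCODE M21 (42462 of 43346 gene IDs matched, and 149 of 152 member transcripts), promoter windows from RefSeq on GRCm38.p6. Counts were rounded and scaled by TMM (edgeR 4.0.16, R 4.3.3), and tested with an exact binomial test (scipy 1.17.1) with Benjamini-Hochberg adjustment over the 12081 genes whose mean count was at least 10. DESeq2 1.42.0 size factors and an edgeR exact test were alternatives. Errors are SD over 2 libraries of the same named donor, and p-values may reflect technical spread alone. Limits of 3 counts and 95% intervals cover counting error only. All members are named. Of each partner list up to 3 genes by mean TPM and close paralogs of members are named. Further partners given with values (Snapin, Rab3c, Rab3d, Csgalnact1, the Rab27 effectors and the synaptotagmins) were chosen after their values were seen, as were the motif search, the E-box windows shown and the comparison of TPM with counts. The members and lists were chosen with earlier results of these data known.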

Additional observations from a re-analysis of the deposited data

How the results depend on the processing

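No paired analysis was possible because there was only 1 group. The median member level of 8.51 TPM became 33.4 TPM when TPM was rescaled over nuclear protein-coding genes, and the median percentile of 79.7 became 62.4 against genes whose mean was at least 0.1 TPM. Without 1 library the median level was 7.78 to 9.27 TPM, the percentile 78.6 to 80.6, the members at 1 TPM or more 30 to 30 and the median coding level 7.66 to 7.78 TPM. The 25 members that differed between the libraries became 1, Rab27b, under edgeR's exact test with an assumed biological coefficient of variation of 0.1, where 12.9% of all genes were called. With counting error as the sole spread 23 to 26 were called. The members past 1.5-fold went from 2 to 1 at a mean count of 100 or more, where Rab27b and Rab38 were not tested and Bloc1s3 passed, from 2 to 1 at a 2-fold rule, and to 3 with total counts (with Bloc1s3) or with no filter (with Slc35d3). The members with a noncoding or changing leading transcript went from 5 to 3 at 5 TPM or more. Of 159 ratios of single members under other settings, 133 kept their direction and side of the threshold, 24 lost the call, all under the edgeR test, 1 gained it (Bloc1s6 with total counts) and 1 changed sign (Bloc1s4, never called, with total counts, at a log2 ratio of -0.0090). Few counts stand behind Slc35d3, at 14 and 5, which fell under the mean count of 10 and was called with no filter, and behind Rab27b.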
